A study of Mus musculus with 8 samples.

Results

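The genes of mitochondrial and peroxisomal fatty acid oxidation were examined in RNA-seq libraries from control mice and mice given tranilast. The group was taken by symbol and held 32 of the 22063 genes in the deposited table. It covers acyl-CoA activation, the carnitine shuttle, the enzymes of the beta-oxidation spiral, electron transfer, the peroxisomal steps and the nuclear receptor gene Ppard. The study asked how tranilast, an oral anti-allergic drug, acts on the liver of mice with diet-induced steatosis. There were 4 libraries labelled Control and 4 labelled Control+tranilast, all from wild-type (WT) Mus musculus and all labelled Liver. According to the series design both groups received a high-fat and high-cholesterol (HFHC) diet, which the sample labels do not name. The diet model of the study used male C57BL/6J mice. The dose of tranilast, its duration and the age of the sequenced mice are not given in the labels. Nothing in the labels states that each library came from a separate animal, so the p-values below measure the spread between these libraries only.

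Fatty acids are first joined to coenzyme A by long-chain acyl-CoA synthetases. The carnitine shuttle then carries long-chain acyl groups into the mitochondrial matrix, and its first enzyme, carnitine palmitoyltransferase 1 (CPT1), is inhibited by malonyl-CoA and is the main point of control. In the matrix, repeated rounds of dehydrogenation, hydration, dehydrogenation and thiolysis release acetyl-CoA, and the electrons of the first step pass through the electron transfer flavoprotein (ETF) to ubiquinone. Peroxisomes shorten very long and branched acyl chains with their own enzymes. The liver carries out much of the fatty acid oxidation of the fasted animal, and many of these genes are targets of the peroxisome proliferator-activated receptors (PPARs).

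The libraries held between 12053036 and 15618787 counts, so that a gene without a count could lie at up to 3 counts, or 0.192 to 0.249 CPM (counts scaled to the library total), by counting error alone. The tissue label was checked against marker genes, and the summed counts of 9 hepatocyte markers never exceeded 0.000191% of a library. Alb, which encodes serum albumin, had between 0 and 2 counts, and Hnf4a had 0 counts in all 8 libraries. The summed share of 8 macrophage markers was 0.884% to 0.96%, led by Lyz2 with at least 51300 counts per library. Of these markers Mertk had at most 1 count in any library. The summed markers of endothelial cells, stellate cells, T cells, B cells and neutrophils each stayed at or below 0.000116% of a library. The Kupffer cell markers Clec4f, Vsig4 and Timd4 had 0 counts throughout. The libraries are therefore named below by their treatment labels and not as liver. Levels between groups are given as CPM scaled by the TMM method, and levels between genes as FPKM, in which the authors had already divided by transcript length and depth. Of 14 cell-cycle genes, 12 were lower with tranilast, or 85.7%, against 28.8% of all genes tested. The summed level of the 14 ran from 5230 to 5460 scaled CPM in the control libraries against 3300 to 3370 in the tranilast libraries. With library size as the only scaling, 10 of the 14 were lower, and so were 17.6% of all genes. The part of this difference in the results below was not tested.

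Most of the oxidation genes that could be tested differed between the groups, and the majority of those were higher with tranilast. Of the 32 genes, 28 passed the filter on low counts. With the quasi-likelihood test of edgeR and a threshold of 0.05 on the p adjusted by the Benjamini-Hochberg method over all 10770 genes tested, 16 were higher, 4 were lower and 8 were not called. The 16 higher genes were 57.1% of the tested oxidation genes, against 28.2% of all genes tested that were higher. The 4 lower genes were 14.3%, against 28.8%. In either direction 71.4% were called, where the background was 57.0%. All adjusted p-values below come from this test unless another is named, and SE is the standard error of its log2 fold change. In these bulk libraries fewer cells of a type and less RNA per cell cannot be told apart.

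The size of the differences was moderate. The median log2 fold change of the 28 genes was 0.14, against 0.01 over all genes tested. Among called genes the median absolute log2 fold change was 0.33 for the oxidation genes and 0.32 for all genes. Control and tranilast libraries occupied separate ranges in 16 of the 28 genes, or 57.1%, against 49.8% of all genes, and 13 of the 16 were higher. Cpt1a and Acox3 had a log2 fold change of at least 1, a size that 2.10% of all genes tested reached in the higher direction. The study used a fold threshold of 1.5 on the log2 scale. Past it, 0 of the oxidation genes were called in edgeR, 0 at an unadjusted p under 0.05, and 0 in DESeq2 and limma-voom, against 1.11% of all genes in edgeR.

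The scaling between libraries moved the balance of the whole comparison. The share of higher genes among all called genes was 49.5% with TMM, 62.6% with upper-quartile factors and 70.9% with library size alone, which raised the median log2 fold change of all genes by 0.117. With library size alone 22 of the oxidation genes were higher and 1, Acsl5, was lower, where 42.8% of all genes were higher and 17.6% lower. Small negative values below should be read against this shift, as the plot of fold changes shows. Acadm, Hadhb, Eci1, Eci2, Hsd17b4, Acsl3 and Etfb, which were not called above, were called higher in at least 1 alternative fit. The 13 genes Cpt1a, Slc25a20, Acadvl, Acadl, Acads, Acad9, Acad10, Hadh, Echs1, Acaa2, Etfdh, Acox3 and Acsl5 had the same direction and the same call in all 19 alternative fits, the first 12 higher and Acsl5 lower.

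**Figure D1:**
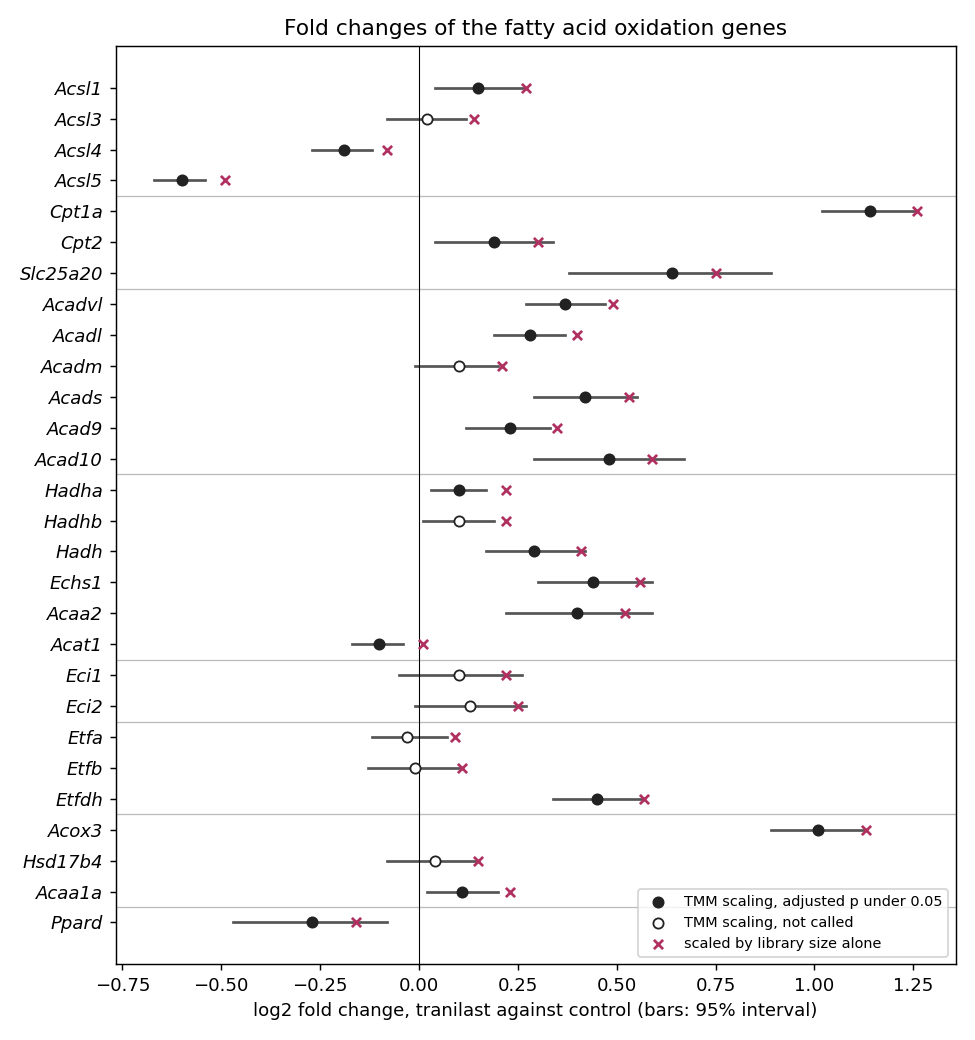
Log2 fold change of each of the 28 tested oxidation genes, tranilast against control, with its 95% interval from edgeR. Filled circles mark an adjusted p under 0.05, open circles genes that were not called, and crosses the same estimate with library size as the only scaling. Cpt1a at 1.14 and Acox3 at 1.01 lie furthest to the right and Acsl5 at -0.60 furthest to the left, and every cross lies to the right of its circle.

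The promoters of 26 of the 32 genes were found in the RefSeq promoter table of build GRCm38.p6, as 27 windows of 250 bases before to 50 bases after the start site. The 250 upstream bases were richer in G and C than most, with a median of 59.6% against 52.4% for 32851 windows of all genes, and held a median of 14 CpG dinucleotides against 6. They were searched on both strands for 5 motifs. A perfect PPAR response element of the DR1 type (AGGNCA repeated on the same strand with 1 base between) was in 0 of the 27 windows and in 0.381% of all windows. The estrogen-related receptor element (TNAAGGTCA) was in 0 and in 1.28%, the E-box (CACGTG) in 0 and in 7.15%, and the cAMP response element (TGACGTCA) in 0 and in 1.79%. No match says only that these letters are not in these windows. The palindromic element of nuclear respiratory factor 1 (NRF1), a regulator of nuclear genes for mitochondrial proteins, was in 2 windows, those of Etfdh and Acad10, against 0.971% of all windows. Both genes were higher with tranilast. Their matches are shown on the strand of the gene and with the element in capitals. Etfdh has 10 flanking bases on each side and Acad10 has 10 before the element only:
Etfdh, chr3:79628876-79628905, minus strand: tgcttctaggGCGCATGCGCacacgcgaga
Acad10, chr5:121660509-121660528, minus strand: ggccccgggcGCGCATGCGC
Both overlap an annotated exon of their own gene. The stretches below were chosen after the values were seen. Cpt1a and Acox3 are shown because they had the largest differences, as 150 bases upstream of an annotated first exon, and the 85 bases between Hadha and Hadhb because these genes face away from each other across them:
Cpt1a, chr19:3323135-3323284, plus strand: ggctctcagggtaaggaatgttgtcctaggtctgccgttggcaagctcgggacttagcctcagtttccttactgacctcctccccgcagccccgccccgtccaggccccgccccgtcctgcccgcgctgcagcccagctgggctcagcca
Acox3, chr5:35582884-35583033, plus strand: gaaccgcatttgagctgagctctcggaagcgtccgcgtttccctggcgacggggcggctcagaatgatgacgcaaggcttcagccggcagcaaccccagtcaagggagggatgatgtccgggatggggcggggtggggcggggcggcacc
Hadha and Hadhb, chr5:30155163-30155247, plus strand: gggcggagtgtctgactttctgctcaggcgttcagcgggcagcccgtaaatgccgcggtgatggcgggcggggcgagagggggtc
In the GENCODE M21 annotation the Cpt1a stretch lies in the first intron of a longer Cpt1a transcript, the Acox3 stretch lies in an exon of the antisense RNA 4931431C16Rik, and the stretch between Hadha and Hadhb holds no gene.

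The carnitine shuttle held the largest difference of the whole group. Its 3 tested genes, Cpt1a, Slc25a20 and Cpt2, were all higher with tranilast, with a median log2 fold change of 0.64. Cpt1a (ENSMUSG00000024900, chromosome 19 of GRCm38, 3322334 to 3385733) encodes the CPT1 isoform that predominates in liver and most other tissues outside muscle. It stood at 38.8, 45.5, 39.4 and 41.2 scaled CPM in control libraries 1 to 4 and at 96.6, 85.6, 85.3 and 95.3 in tranilast libraries 1 to 4. The lowest tranilast library was far above the highest control library. The means were 41.2 ± 3.04 and 90.7 ± 6.10 CPM (SD, n = 4 each), a 2.20-fold difference (log2 fold change 1.14, SE 0.059, adjusted p = 1.3e-11). Over the alternative fits the log2 fold change ran from 1.11 to 1.26.

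Slc25a20, the carnitine-acylcarnitine translocase of the inner membrane, had the fewest counts of the tested genes. It stood at 6.47, 6.53, 6.02 and 7.82 scaled CPM in the control libraries and at 10.8, 9.99, 11.4 and 9.59 in the tranilast libraries. The groups did not overlap, and the log2 fold change was 0.64 (SE 0.12, adjusted p = 2.3e-04). Cpt2, which returns the acyl group to coenzyme A on the matrix side, was at 25.3, 28.3, 23.3 and 25.3 scaled CPM against 29.3, 30.7, 27.2 and 29.1. Control library 2 lay above tranilast library 3, so the groups overlapped. Its log2 fold change of 0.19 (SE 0.072) passed the threshold at an adjusted p of 0.0334. The call was lost without control library 1, 3 or 4 (log2 fold change 0.18, 0.14 and 0.18) or tranilast library 1, 2 or 4 (0.19, 0.16 and 0.19), and in DESeq2 (0.18), with adjusted p over all fits from 0.00137 to 0.118.

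The other CPT1 genes were near the floor. Cpt1a made up 98.5% of the summed FPKM of the 3 CPT1 genes in the control libraries and 98.3% in the tranilast libraries. Cpt1b, the muscle isoform, had 3, 0, 3 and 4 counts in the control libraries and 0, 8, 0 and 1 in the tranilast libraries. Cpt1c, the isoform of neurons, had 1, 4, 2 and 3 counts against 6, 5, 12 and 17. Every tranilast library was above every control library for Cpt1c, and 29 of the 40 tranilast counts came from tranilast libraries 3 and 4. Both genes fell under the filter. Without a filter Cpt1c was called at a log2 fold change of 1.99 (adjusted p = 0.0158), the 1 gene of the group both called and past 1.5 in that fit. Decr1 (-2.79) and Ehhadh (-2.3) were past 1.5 there but were not called.

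The acyl-CoA dehydrogenases, which carry out the first step of each round, showed 5 of 6 genes higher and 0 lower, with a median log2 fold change of 0.32. Acadvl, for very long chains, was at 51.6, 52.3, 53.7 and 50.1 scaled CPM in the control libraries and at 68.0, 65.7, 64.1 and 70.3 in the tranilast libraries. Acadl, for long chains, was at 78.3, 74.9, 79.9 and 77.0 against 92.3, 98.7, 95.8 and 90.1. Acads, for short chains, was at 32.1, 36.1, 31.3 and 32.3 against 43.0, 48.0, 41.4 and 43.3. In none of these 3 genes did the groups overlap. Their log2 fold changes were 0.37 (SE 0.047, adjusted p = 2.6e-06) for Acadvl, 0.28 (SE 0.042, adjusted p = 1.9e-05) for Acadl and 0.42 (SE 0.062, adjusted p = 1.7e-05) for Acads. Acadm, for medium chains, did not pass, at 49.1, 50.8, 50.1 and 54.2 scaled CPM against 54.4, 52.3, 56.1 and 55.5. Control library 4 lay inside the tranilast range, and the log2 fold change was 0.10 (95% interval -0.01 to 0.20, adjusted p = 0.104). Without control library 4 it was called (0.12, adjusted p = 0.0492). It was also called with upper-quartile factors (0.16), library size alone (0.21) and the FPKM (0.21 and 0.22). Its adjusted p over all fits ran from 0.00116 to 0.228.

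Acad9, which is also an assembly factor of respiratory complex I, stood at 43.4 ± 1.68 scaled CPM in the control and 50.9 ± 1.54 in the tranilast libraries (SD, n = 4 each), without overlap (log2 fold change 0.23, SE 0.050, adjusted p = 7.1e-04). Its deposited FPKM were more scattered, at 17.3, 14.3, 12.4 and 11.3 against 18.9, 16.8, 22.6 and 14.8, and overlapped on that scale. Acad10, a less studied member of the family, was the lowest of the 6 per length, at 2.92 FPKM in the control libraries, and had the largest log2 fold change among them. It stood at 10.2, 11.0, 11.4 and 11.7 scaled CPM in the control libraries and at 15.3, 15.5, 15.7 and 15.2 in the tranilast libraries. The tranilast libraries lay close together, with a coefficient of variation of 1.56%, and the log2 fold change was 0.48 (SE 0.090, adjusted p = 2.0e-04).

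Of the 6 genes for the hydratase, dehydrogenase and thiolase steps, 4 were higher, 1 was lower and 1 was not called. Echs1, the short-chain enoyl-CoA hydratase, was at 20.3, 20.9, 20.9 and 22.1 scaled CPM in the control libraries and at 27.8, 30.0, 26.8 and 29.7 in the tranilast libraries. Acaa2, the mitochondrial 3-ketoacyl-CoA thiolase, was at 22.4, 18.2, 19.8 and 19.7 against 23.6, 26.5, 25.1 and 30.6. Hadh, the medium and short-chain hydroxyacyl-CoA dehydrogenase, was at 37.2, 35.4, 39.7 and 43.1 against 46.0, 47.7, 49.3 and 47.6. All tranilast libraries lay above all control libraries in each of these genes, by a narrow margin for Acaa2. The log2 fold changes were 0.44 (SE 0.069, adjusted p = 2.5e-05) for Echs1, 0.40 (SE 0.089, adjusted p = 8.0e-04) for Acaa2 and 0.29 (SE 0.059, adjusted p = 3.8e-04) for Hadh.

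Hadha and Hadhb encode the subunits of the mitochondrial trifunctional protein, which carries out the last 3 steps for long chains. Their annotated starts lie 85 bases apart on opposite strands, across the stretch printed above. Hadha was at 146, 149, 154 and 150 scaled CPM in the control libraries and at 154, 159, 165 and 164 in the tranilast libraries. Hadhb was at 80.2, 73.8, 77.1 and 79.6 against 82.7, 81.9, 81.5 and 86.9. The estimates were alike in size, with a log2 fold change of 0.10 (SE 0.035, adjusted p = 0.0198) for Hadha and of 0.10 (SE 0.043, adjusted p = 0.0526) for Hadhb, so that one lay just under the threshold and the other just over it. Hadha was called although control library 3 and tranilast library 1 were level, and Hadhb was not called although its groups did not overlap. Hadha lost its call without control library 1, tranilast library 3 or tranilast library 4, each time at a log2 fold change of 0.09, and its adjusted p over all fits ran from 3.6e-05 to 0.0617. Hadhb gained a call without control library 1 (0.11) and in limma-voom (0.10). It was also called with upper-quartile factors (0.17), library size alone (0.22) and the FPKM (0.20 and 0.21). Its adjusted p ran from 3.4e-04 to 0.159. Per length the pair stood at 35.8 ± 0.816 and 37.3 ± 1.5 FPKM (SD, n = 4 each) in the control libraries and at 41.6 ± 1.39 and 43.0 ± 1.87 FPKM in the tranilast libraries.

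Acat1, the mitochondrial acetoacetyl-CoA thiolase, which also serves ketone body and isoleucine metabolism, was the 1 lower gene of these steps. It stood at 184, 190, 192 and 194 scaled CPM in the control libraries and at 181, 180, 172 and 175 in the tranilast libraries, without overlap. The log2 fold change was -0.10 (SE 0.033, adjusted p = 0.0113). With library size alone or with the deposited FPKM it was 0.01, so its direction rested on the scaling. The auxiliary enzymes for unsaturated acyl-CoA were not called. The enoyl-CoA isomerases Eci1 and Eci2 had log2 fold changes of 0.10 (95% interval -0.05 to 0.26, adjusted p = 0.255) and 0.13 (95% interval -0.01 to 0.27, adjusted p = 0.0964). Eci2 was called without control library 3 (0.17, adjusted p = 0.0426), and its adjusted p over all fits ran from 0.00325 to 0.274. Decr1, the mitochondrial 2,4-dienoyl-CoA reductase, had 3 counts in control library 1 and 0 in the other 7 libraries.

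**Figure D2:**
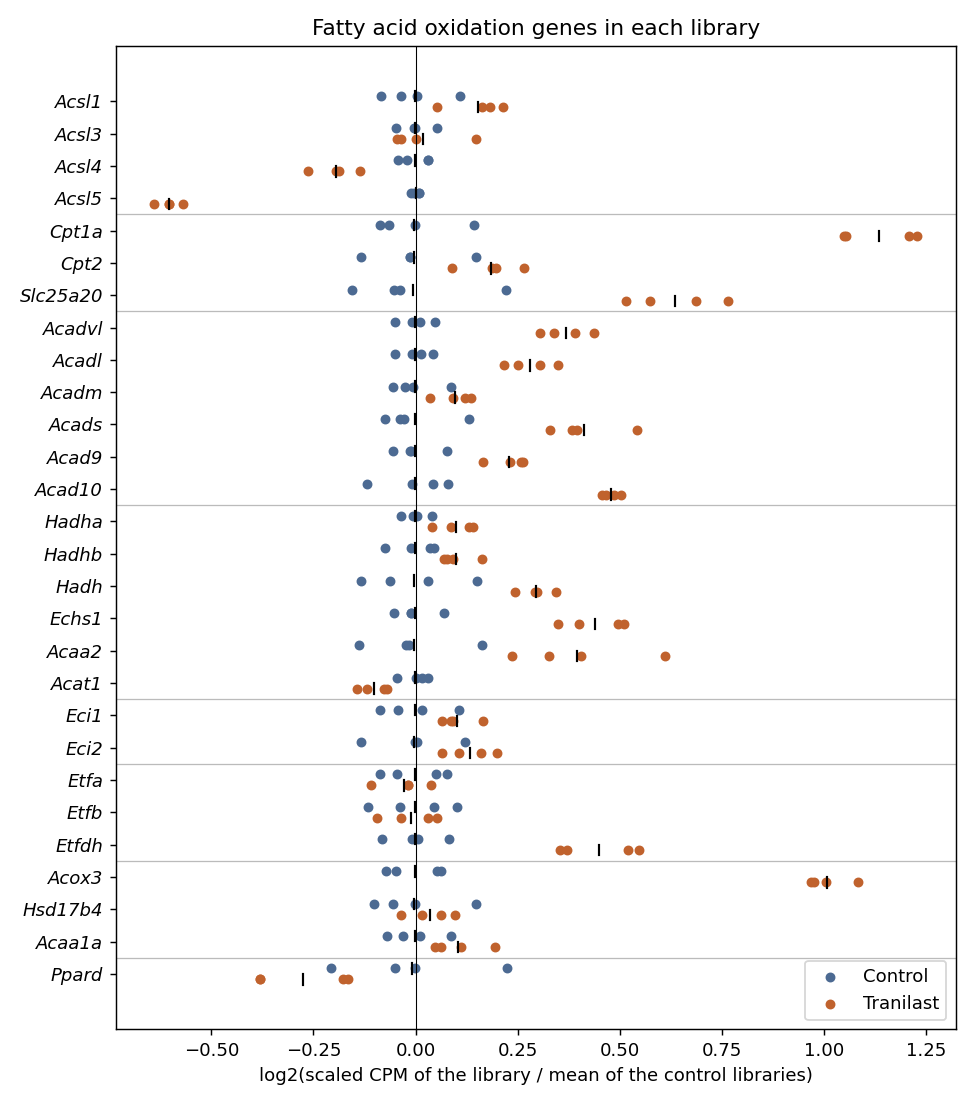
Level of each tested oxidation gene in each of the 8 libraries, as the log2 of its scaled CPM over the mean of the control libraries, ordered by step and separated by grey lines. Blue points are control libraries, orange points are tranilast libraries and black ticks are group means. The tranilast points of Cpt1a and Acox3 lie near or above 1, those of Acsl5 near -0.60, and in Etfa and Etfb the groups are mixed.

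In electron transfer 1 of 3 genes was higher. Etfdh, the ubiquinone oxidoreductase that accepts electrons from ETF, was at 53.2, 56.1, 52.7 and 50.1 scaled CPM in the control libraries and at 67.7, 76.1, 68.6 and 77.5 in the tranilast libraries. Every tranilast library was above every control library, and the log2 fold change was 0.45 (SE 0.054, adjusted p = 1.3e-06). Etfa and Etfb, the subunits of ETF itself, were not called. Etfa was at 99.2, 111, 109 and 102 scaled CPM against 108, 104, 97.6 and 104, a log2 fold change of -0.03 (95% interval -0.12 to 0.07, adjusted p = 0.643). Etfb was at 37.8, 42.3, 39.9 and 44.0 against 38.4, 40.0, 41.9 and 42.5, a log2 fold change of -0.01 (95% interval -0.13 to 0.11, adjusted p = 0.893). The groups overlapped in both subunits, and both estimates turned positive with upper-quartile or library-size scaling. The adjusted p of Etfb over all fits ran from 0.0442 to 0.997, and at the lowest it was called higher.

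Of the peroxisomal genes, Acox3 stood apart. Acox3 (ENSMUSG00000029098, chromosome 5, 35583040 to 35615352) encodes an acyl-CoA oxidase that acts on branched chains. It was at 26, 25.6, 27.9 and 28.1 scaled CPM in the control libraries and at 54.0, 52.6, 52.9 and 57.0 in the tranilast libraries. No tranilast library came near the control range, and the fold difference was 2.01 (log2 fold change 1.01, SE 0.055, adjusted p = 3.0e-11). The deposited FPKM of Acox3 were more scattered than its counts, at 11.6, 9.55, 8.90 and 16.8 against 21.8, 23.8, 20.6 and 16.2, and on that scale tranilast library 4 lay below control library 4. In limma trend on the FPKM the gene was still called, and its log2 fold change over all fits ran from 0.79 to 1.13.

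Acaa1a, a peroxisomal 3-ketoacyl-CoA thiolase, was at 116, 110, 107 and 104 scaled CPM in the control libraries and at 118, 125, 114 and 113 in the tranilast libraries. Control library 1 lay within the tranilast range. The log2 fold change was 0.11 (SE 0.044, adjusted p = 0.0396). The call was lost without control library 2, 3 or 4 (0.11, 0.10 and 0.08), without tranilast library 1 or 2 (0.11 and 0.08) and with the trends of GC content and length removed (0.05), with adjusted p over all fits from 2.4e-04 to 0.336. Its counts were not whole numbers in any of the 8 libraries, and Acaa1b is a close copy of it, so the division of reads between them is uncertain. Hsd17b4, the peroxisomal multifunctional protein for branched and very long chains, was not called, at 68.5 ± 5.26 and 70.2 ± 2.77 scaled CPM (SD, n = 4 each). Its log2 fold change was 0.04 (95% interval -0.08 to 0.15, adjusted p = 0.592). Ehhadh, the other multifunctional enzyme and a strong PPAR target in liver, had 1 count in control libraries 2 and 4 and 0 elsewhere.

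The acyl-CoA synthetases moved in different directions, with 1 of 4 genes higher and 2 lower. Acsl5, found on mitochondria and endoplasmic reticulum, was the highest of them per length, at 56.4 FPKM in the control libraries. It was at 246, 244, 243 and 246 scaled CPM in the control libraries and at 157, 165, 161 and 161 in the tranilast libraries. The control libraries differed by a coefficient of variation of 0.602%, and the log2 fold change was -0.60 (SE 0.030, adjusted p = 1.0e-11). Acsl4, which prefers arachidonic acid, was at 200, 200, 193 and 190 against 172, 163, 178 and 171. The groups did not overlap, and the log2 fold change was -0.19 (SE 0.035, adjusted p = 1.1e-04). Acsl4 lost its call with library size alone (-0.08) and with the FPKM (-0.08), with adjusted p over all fits from 8.8e-07 to 0.117.

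Acsl1, the synthetase most often tied to oxidation in heart and fat, was at 48.2, 45.3, 51.8 and 46.9 scaled CPM in the control libraries and at 49.8, 55.7, 54.5 and 53.8 in the tranilast libraries. Control library 3 lay above tranilast library 1. The log2 fold change was 0.15 (SE 0.054, adjusted p = 0.0215). The call was lost without control library 2 or 4 (0.13 and 0.14) or tranilast library 2 (0.14), with adjusted p over all fits from 3.5e-04 to 0.0681. Acsl3, a synthetase of lipid droplets, was not called, at 69.7 ± 2.01 and 70.6 ± 4.47 scaled CPM (SD, n = 4 each) and a log2 fold change of 0.02 (95% interval -0.08 to 0.12, adjusted p = 0.753). Without tranilast library 4 its log2 fold change was -0.02. Per length, Acsl5 held 44.1 ± 0.953% of the summed FPKM of the 4 synthetases in the control libraries and 35.3 ± 1.04% in the tranilast libraries (SD, n = 4 each). Acsl1 went from 9.33 ± 0.483% to 12.5 ± 0.408%, Acsl3 from 17.1 ± 0.512% to 20.9 ± 1.13% and Acsl4 from 29.5 ± 0.698% to 31.3 ± 1.28%.

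Ppard encodes PPAR-delta, a receptor that turns on fatty acid oxidation genes in muscle and macrophages. It was at 21.0, 24.2, 28.3 and 23.4 scaled CPM in the control libraries and at 18.6, 21.4, 18.6 and 21.6 in the tranilast libraries. The groups overlapped, since control library 1 lay below tranilast libraries 2 and 4. The log2 fold change was -0.27 (SE 0.092, adjusted p = 0.0171). The call was lost without control library 3 (-0.19), tranilast library 1 (-0.23) or tranilast library 3 (-0.24), with upper-quartile factors (-0.20), with library size alone (-0.16) and with the FPKM (-0.02), and adjusted p over all fits ran from 0.002 to 0.88. Ppard had the widest spread of the tested genes, with a coefficient of variation of 12.5% in the control libraries.

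Counts within a library can be set against each other without a choice of scaling. The log2 ratio of Cpt1a to the summed counts of 9 enzymes of the matrix spiral (Acadvl, Acadl, Acadm, Acads, Hadha, Hadhb, Hadh, Echs1 and Acaa2) was -3.74, -3.49, -3.74 and -3.68 in the control libraries. In the tranilast libraries it was -2.61, -2.83, -2.83 and -2.70. The groups did not overlap, and the difference of 0.92 was larger than the SD within groups, 0.119 and 0.106 (n = 4 each). The two-sided exact permutation p was 0.0286, the smallest that 4 libraries against 4 can give. Cpt1a thus differed more than the enzymes it feeds, whose summed level was 511 to 528.4 scaled CPM in the control libraries and 591.7 to 618.6 in the tranilast libraries.

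Cpt1a against Cpt2 rose from 0.69 ± 0.0585 to 1.64 ± 0.112 on the log2 scale (SD, n = 4 each), with the same two-sided exact permutation p of 0.0286. After Benjamini-Hochberg adjustment over these 2 ratios the exact p was 0.0286 for each. Both ratios hold Cpt1a, which had the largest difference of the group and separate ranges in the 2 groups. The genes were also chosen with earlier results of these data known. These p-values therefore add no support beyond the values of Cpt1a itself. The next 3 ratios were chosen after the values were seen, because 1 gene stood apart from its partners, and are given as a description with no test. Etfdh against Etfa and Etfb went from -1.46 ± 0.0755 to -0.99 ± 0.0957, Acox3 against Acaa1a and Hsd17b4 from -2.73 ± 0.0725 to -1.80 ± 0.0801, and Acsl5 against the other 3 synthetases from -0.36 ± 0.033 to -0.87 ± 0.0483.

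**Figure D3:**
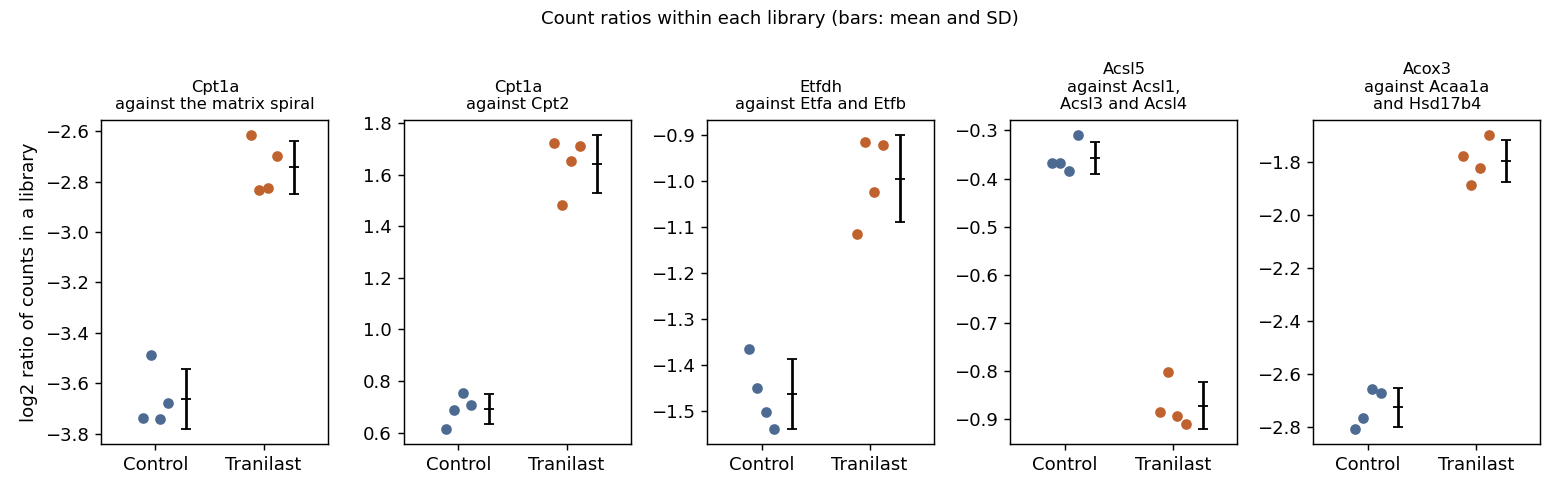
Log2 ratio of counts within each library for 5 pairs of genes or gene sums. Points are libraries, 4 per group, and bars give the mean and SD. Each vertical axis has its own range. The ratio of Cpt1a to the matrix spiral lies near -3.66 in the control and -2.74 in the tranilast libraries, and in the fourth panel Acsl5 falls against the other synthetases.

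In level per length the group spanned a wide range. In the control libraries Etfa led with 72.6 ± 3.66 FPKM (SD, n = 4), followed by Acaa1a with 59.7 ± 3.0, Acsl5 with 56.4 ± 1.42, Etfb with 54.2 ± 3.84 and Acat1 with 53.6 ± 1.18. The library values overlapped between Acaa1a and Acsl5, between Acsl5 and Etfb and between Etfb and Acat1, so the order of these neighbours is not fixed. Cpt1a, at 9.26 ± 0.592 FPKM, was 25th of the 32 genes in the control libraries and stood at 22.0 ± 1.44 FPKM in the tranilast libraries. The lowest tested genes were Ppard with 8.02 FPKM, Slc25a20 with 3.61 ± 0.422 and Acad10 with 2.92 ± 0.171. Cpt1b, Cpt1c, Decr1 and Ehhadh were each under 0.1 FPKM on average in the control libraries. Summed over the tested genes, the group stood at 1854 to 1893 scaled CPM in the control libraries and at 1946 to 1998 in the tranilast libraries.

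**Figure D4:**
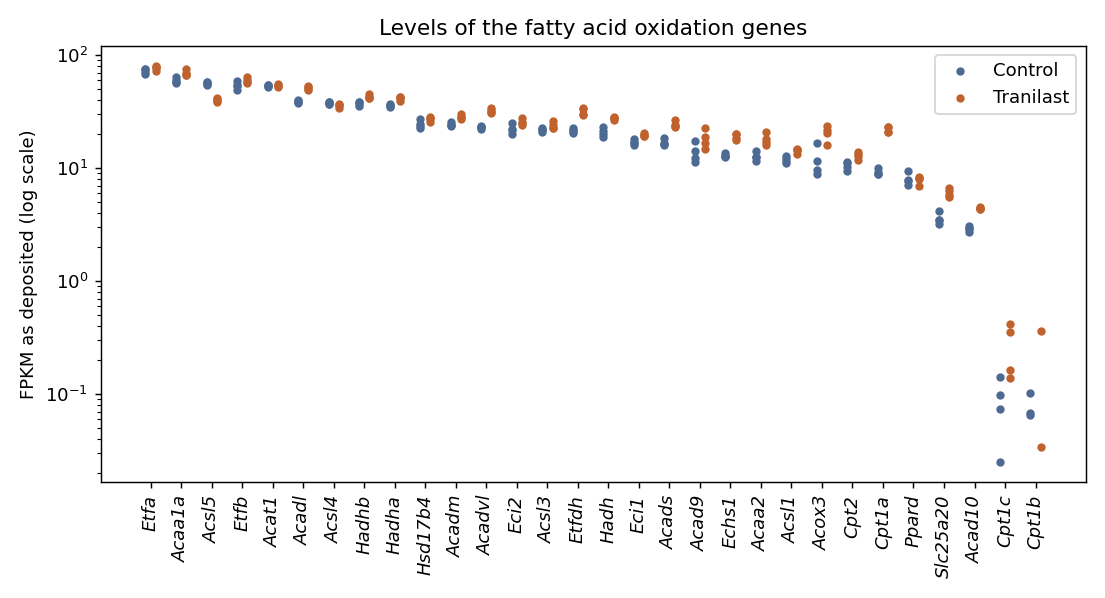
Level of the oxidation genes in each library as deposited FPKM, on a log scale, ordered by the mean of the control libraries. Blue points are control libraries and orange points tranilast libraries, and values of 0 and the genes Decr1 and Ehhadh are not drawn. Etfa leads at 72.6 FPKM, and Cpt1a goes from 9.26 to 22.0 FPKM.

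Further genes of the same pathways were counted for comparison. Of 36 further genes of mitochondrial and peroxisomal acyl-CoA metabolism in the table, 34 were tested, and 18 were higher and 3 lower, with a median log2 fold change of 0.23. These were 52.9% and 8.82%, against 28.2% and 28.8% of all genes tested. The highest were the acyl-CoA dehydrogenases Acad11 (1.13) and Acad12 (1.01) and the mitochondrial thioesterase Acot2 (0.95). Lower genes included the hydrolase Nudt19 (-0.27) and the thioesterase Acot9 (-0.21). Acsl6 had at most 7 counts and Acox2 had 0. Of 16 peroxisome biogenesis genes 5 were higher and 1 was lower, with a median of 0.13. The 31.2% that were higher were close to the 28.2% of all genes. Among them Pex7, the import receptor for the second type of targeting signal, had 0.76. With library size alone 10 of the 16 were higher, and so were 42.8% of all genes.

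The tricarboxylic acid (TCA) cycle oxidises the acetyl-CoA that the spiral releases. Of its 17 genes 1 was higher and 9 were lower, with a median log2 fold change of -0.10, led by Idh3a (-0.40), Fh1 (-0.24) and Sdhb (-0.17). The 1 higher gene was Dld (0.09). The lower genes were 52.9%, against 28.8% of all genes. With upper-quartile factors or library size alone 2 of the 17 were lower, where 21.6% and 17.6% of all genes were lower, so this count rested on the scaling. In the deposited KEGG annotation, fatty acid degradation held 15 tested genes outside the group, 7 higher (46.7%) and 1 lower. The KEGG peroxisome pathway held 61, with 27 higher (44.3%) and 6 lower, and the PPAR signaling pathway held 30, with 12 higher (40.0%) and 8 lower. The share of all genes tested that were higher was 28.2%.

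The genes that set malonyl-CoA, the inhibitor of CPT1, were measured as well. Acaca, the cytosolic acetyl-CoA carboxylase, with at least 2340 counts per library, was not called (log2 fold change -0.05, adjusted p = 0.201). Acacb, the carboxylase of the outer mitochondrial membrane, was low, with 14 to 37 counts, and was higher with tranilast (0.76, adjusted p = 0.0184). Mlycd, which breaks malonyl-CoA down, was higher (0.29, adjusted p = 0.0108). Acacb and Mlycd have opposite effects on malonyl-CoA.

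Among the receptors and coactivators of the PPAR system, Ppara, Pparg and Ppargc1a had at most 1 count in any library, so Ppard was the 1 PPAR gene above the floor. Of 10 tested genes of this list 2 were higher and 2 lower, or 20% each, below the share over all genes in both directions. Lpin1, a coactivator and phosphatidate phosphatase, had a log2 fold change of 1.2 (adjusted p = 7.3e-10) and Rxrb, a partner of the PPARs, 0.20 (adjusted p = 0.0011). Pprc1 had -0.22 (adjusted p = 1.2e-04) and Med1 -0.13 (adjusted p = 0.00336). Ppargc1b, Esrra, Nrip1, Ncor1 and Sirt3 were not called, with log2 fold changes between -0.01 and 0.13, and Rxra had at most 11 counts. With library size alone 5 genes of the list were higher and 1 lower, where 42.8% of all genes were higher and 17.6% lower. Of 12 PPAR targets outside the group 4 were tested, and 3 were higher and 1 was not called. The higher genes were 75.0%, against 28.2% of all genes tested, but of 4 genes only. Among them were the lipid droplet coat gene Plin2 (0.72, adjusted p = 4.4e-09) and the mitochondrial carrier Ucp2 (0.07, adjusted p = 0.0289). The remaining higher gene had a mean count of 14.68, and in it and in Ucp2 the groups overlapped. The liver targets Cyp4a10, Cyp4a14, Fgf21 and Vnn1 had 0 counts, Pdk4 and Ucp3 had at most 1 and Fabp4 at most 17.

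**Figure D5:**
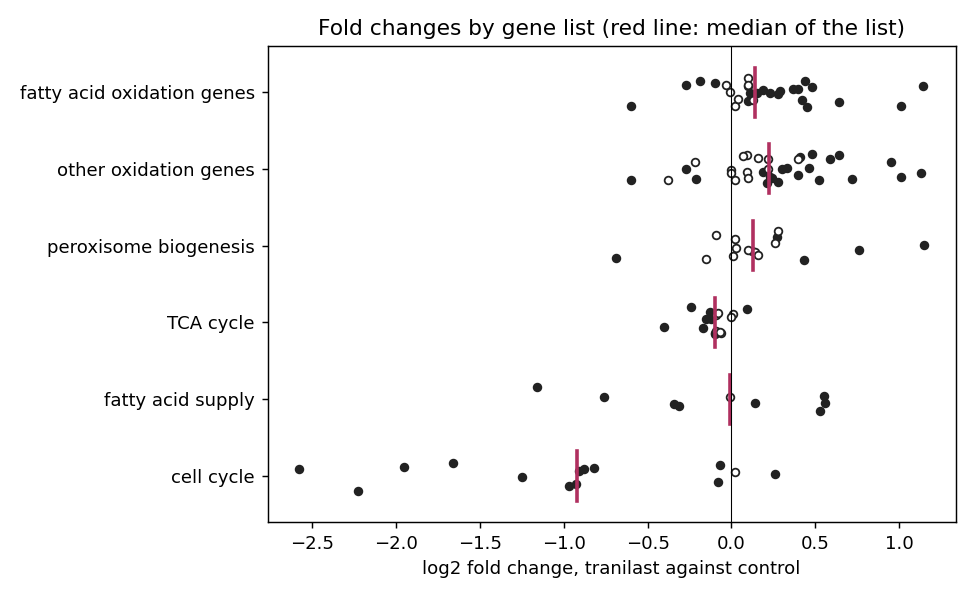
Log2 fold changes, tranilast against control, for the oxidation genes and 5 other gene lists. Each point is a tested gene, filled where the adjusted p was under 0.05, and the red line is the median of the list. The medians are 0.14 for the oxidation genes, 0.23 for the other oxidation genes, -0.10 for the TCA cycle and -0.92 for the cell cycle.

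Some counts cannot be assigned to 1 gene with certainty. In the GENCODE M21 annotation 9 of the 32 genes share exon positions with another protein-coding gene, and the strand setting of the counting is not given in the sources used here. Among the called genes these pairs are Acsl5 with Zdhhc6, Acadvl with Dvl2, Hadha with Garem2, Echs1 with Paox, Etfdh with 4930579G24Rik and Acaa1a with Myd88. Acadvl had a count that was not whole in 6 libraries and Acad10 in 3. Cpt1a, Slc25a20 and Acox3 share no exon positions with another protein-coding gene and had whole counts in all libraries.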

How the data were processed

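The authors deposited 1 table with, per gene and library, an estimated count and an FPKM value, the latter scaled for transcript length and depth. The study describes poly-A enriched, paired-end TruSeq libraries. The aligner, counter and genome build are not given in the sources used here. Between 92.68% and 93.86% of the counts per library were whole, and all were rounded. Genes were filtered with filterByExpr, scaled by TMM and tested in edgeR 4.0.16 (quasi-likelihood test, Benjamini-Hochberg adjustment, no covariate, threshold 0.05). The biological coefficient of variation was 5.09%. Coordinates are from GENCODE M21 on GRCm38, matched by Ensembl identifier.

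All 32 oxidation genes were named. Of the other lists, the 3 highest and 3 lowest log2 fold changes among called genes with a mean count of at least 50 were named, with genes under a mean count of 10 given as low and all genes of the malonyl-CoA and PPAR lists. The oxidation genes and the lists were chosen with earlier results of these data known. The alternatives were other scalings, DESeq2 1.42.0, limma-voom and limma trend (limma 3.58.1) on log2 of FPKM plus 1 or 0.1, other filters, a replicate block and each library left out. Removal of GC content and length trends was added after the data were seen. On simulated data of 10770 genes for this comparison, edgeR recovered 99 of 100 genes changed by a log2 fold change of 1 and 69 of 100 changed by 0.3, with 5 false calls. Only these genes were changed, as many upwards as downwards, with the same dispersion for every gene. In the real data 57.0% of genes were called, so the simulation does not show the rate of false calls or the effect of scaling there. No 2 libraries of a group agreed within sampling noise. Some genes of the lists are not reported here. Raw reads were not analysed here.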

Additional observations from a re-analysis of the deposited data

How the results depend on the processing

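Between 13 and 15 oxidation genes were higher and 3 or 4 lower when 1 library was left out, and 0 passed 1.5. Of all genes tested in these leave-one-out fits, 25.7% to 26.9% were higher and 26.5% to 27.8% lower. The lower count was 2 with upper-quartile factors and 1 with library size alone or either FPKM fit. Of all genes, 21.6% were lower with upper-quartile factors, 17.6% with library size alone and 15.4% in either FPKM fit. In these fits the median shift of the log2 fold changes of all genes was upwards. Without a filter 1 gene, Cpt1c, was called past 1.5. Cpt1a against the matrix spiral ranged from 0.88 to 0.98 without single libraries.

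Reversed values were 0.01 for Acat1 (library size, both FPKM fits). For Etfa they were 0.04 (upper quartile) and 0.09 (library size, both FPKM fits). For Etfb they were 0.06 (upper quartile), 0.11 (library size) and 0.15 (both FPKM fits). Without single libraries the values ran from -0.06 to 0.0017 for Etfa and from -0.05 to 0.02 for Etfb. Only the positive ones among these were reversed. For Acsl3 the value was -0.02 without Tranilast replicate 4. For the leave-one-out reversals the cause was not tested. Among the other values of single genes, 460 kept direction and call, 31 lost the call and 24 gained it.

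With the replicate number as a block 16 genes were higher and 4 lower, where 27.5% of all genes were higher and 28.3% lower. The numbers did not pair the libraries (correlations of deviations -0.056, -0.044, 0.008 and 0.107), and 6009 of all genes were called with the block against 6143 without. The paired sign-flip test of the Cpt1a ratio gave a difference of 0.92 at an exact p of 0.125, the smallest that 4 pairs allow. Depth limits the statements on Cpt1b, Cpt1c, Decr1 and Ehhadh.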

Other observations

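Genes that supply fatty acids to oxidation changed in both directions. Of 9 tested genes 4 were higher and 4 lower, or 44.4% each, against 28.2% and 28.8% of all genes tested. Lpl, the lipoprotein lipase that macrophages secrete, went from 300 to 144 FPKM on average (log2 fold change -1.16, adjusted p = 1.7e-15 in edgeR). The fatty acid transporter Cd36 had -0.76 (adjusted p = 3.2e-09) and Abhd5, the coactivator of triglyceride lipase, -0.34 (adjusted p = 1.8e-04). On the other side were the fatty acid transport proteins Slc27a4 (0.56, adjusted p = 5.9e-08) and Slc27a1 (0.53, adjusted p = 2.7e-09) and Pnpla2, the triglyceride lipase of lipid droplets (0.55, adjusted p = 5.0e-07). Lpl, Cd36 and Abhd5 were thus lower while Pnpla2, which Abhd5 activates, was higher. Mgll had at most 9 counts.

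Among the ketone body enzymes, Bdh2 had at most 12 counts. Oxct1, which uses ketone bodies and is low in hepatocytes, was lower (log2 fold change -0.17, adjusted p = 2.6e-04 in edgeR) with at least 3550 counts per library. Acat1, which works beside Oxct1, was at a log2 fold change of -0.10.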
